A study of Mus musculus with 16 samples.

Results

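The 10 genes described here encode the lecticans, their link proteins and the partners that hold perineuronal nets together: the lecticans Acan, Bcan, Ncan and Vcan, the link proteins Hapln1, Hapln2 and Hapln4, the tenascins Tnr and Tnc, and the receptor phosphatase Ptprz1. They were chosen by name from the 22572 gene names in the table, and each had 1 locus there. Their transcripts were measured by RNA sequencing of hippocampus from male C57BL/6 mice in 16 libraries, 4 in each of 4 groups. Wild-type mice (WT) and mice labelled Bgn0/- (BgnKO), which carry a knockout of the gene of the matrix proteoglycan biglycan, received either plain drinking water or 15% (w/v) fructose in it over 6 weeks, starting at 3 months of age. The strain, the sex and the tissue were the same in all groups. The labels do not state that the replicates are separate animals, so the p-values describe only how these samples spread, and that spread may be technical. Levels are the deposited FPKM, a fragment number set relative to transcript length and library size, and the depth of the libraries is unknown.

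Perineuronal nets are coats of extracellular matrix around the cell body and proximal dendrites of some neurons, above all fast-spiking interneurons that contain parvalbumin. Hyaluronan chains form the backbone, lecticans (chondroitin sulfate proteoglycans) bind to it, link proteins stabilise that bond, and tenascin-R joins the far ends of the lecticans. In the hippocampus such nets surround interneurons and also pyramidal cells of area CA2, and they limit plasticity, while related lectican matrix lies loosely between cells and at nodes of Ranvier.

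The knockout was checked first. Bgn, summed over 2 loci, ranged from 9.94 to 24.2 FPKM in the 4 WT water libraries and from 4.46 to 7.60 FPKM over both BgnKO groups. Replicate 1 was the lowest Bgn library of every group. In BgnKO it held 4.46 FPKM on water and 5.02 on fructose, and replicates 2 to 4 held 6.69 to 7.60. The library labelled WT fructose replicate 1 held 5.42 FPKM, inside the BgnKO range, and the 3 other WT fructose libraries 17.2 to 21.2. That library also had the lowest summed meningeal markers (268.0 FPKM, against 1368 to 1500 in its group) and the lowest choroid plexus markers (233.0 FPKM) of all 16, and the part of these in its Bgn level was not tested. The sources used here do not give the deleted part of Bgn, and signal from outside it would check nothing. Replicate 1 of every group also stood apart. Over 421 genes with loci on both strands, a median of 3.07 to 4.31% of the FPKM lay on the unannotated strand in the 4 libraries of replicate 1, and 17.4 to 22.3% in the 12 others. BgnKO fructose replicate 4 had the highest summed astrocyte, oligodendrocyte, choroid plexus and meningeal markers of all libraries. Markers of the hippocampus were present throughout: Prox1, a marker of dentate granule cells, lay between 10.7 and 17.6 FPKM, and the interneuron marker Pvalb between 27.8 and 39.1. The summed hippocampal field markers on fructose were 233.7 to 365.4 FPKM in BgnKO and 331.7 to 417.8 in WT. On water they were 304.0 to 325.7 in BgnKO and 323.0 to 360.1 in WT. Summed neocortex markers on fructose were 97.6 to 143.3 in BgnKO and 131.6 to 165.3 in WT. The part of these in the member values was not tested. The choroid plexus marker Ttr ranged from 211.8 to 8924 FPKM between libraries.

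Ptprz1, Tnc and Tnr were picked from their values after the data were seen, and no member passed the main test below. The first pair varied together across libraries, and Tnr had the opposite sign of difference to Ptprz1 in BgnKO mice on fructose. The 250 bases before their annotated starts are shown as a description only, read 5′ to 3′ on the gene's strand from RefSeq (GRCm38.p6). They are chr6:22875252-22875501 on the plus strand for Ptprz1, chr4:64047016-64047265 on the minus strand for Tnc and chr1:159523519-159523768 on the plus strand for Tnr. Capitals mark GGGCGG (known as the GC box), TATAAA (the TATA box), CANNTG (the E-box) or CCAAT, each searched on both strands, and no marks overlap in these windows.
Ptprz1: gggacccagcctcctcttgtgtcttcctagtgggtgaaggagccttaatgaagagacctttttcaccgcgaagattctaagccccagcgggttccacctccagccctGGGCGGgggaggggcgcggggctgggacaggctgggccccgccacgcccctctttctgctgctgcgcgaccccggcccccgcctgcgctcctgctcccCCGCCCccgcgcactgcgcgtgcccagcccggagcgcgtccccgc
Tnc: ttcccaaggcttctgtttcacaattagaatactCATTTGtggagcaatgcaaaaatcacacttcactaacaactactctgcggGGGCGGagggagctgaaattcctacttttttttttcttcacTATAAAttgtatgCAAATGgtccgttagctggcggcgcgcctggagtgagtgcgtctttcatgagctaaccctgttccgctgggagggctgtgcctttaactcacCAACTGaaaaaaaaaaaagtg
Tnr: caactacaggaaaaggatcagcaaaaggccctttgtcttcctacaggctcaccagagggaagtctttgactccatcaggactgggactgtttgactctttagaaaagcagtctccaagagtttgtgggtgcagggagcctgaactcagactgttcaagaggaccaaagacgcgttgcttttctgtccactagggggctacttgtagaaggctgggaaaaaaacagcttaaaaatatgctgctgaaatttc
The Ptprz1 window had 22 CpG dinucleotides, 71.6% G and C bases and 2 GC boxes. The Tnr window had 2 CpG dinucleotides, 46.8% G and C bases and none of these motifs. The Tnc window had 8 CpG dinucleotides, 44.8% G and C bases, 1 TATA box, 1 GC box and 3 E-boxes. Of 32851 RefSeq windows of this length, 12.4% held the TATA box letters, 33.8% CCAAT, 32.7% the GC box and 66.2% the E-box, with a median of 6 CpG dinucleotides. Among the 9 members with a window, 2 held a TATA box, 4 CCAAT, 6 a GC box and 5 an E-box. A match in letters is a description and not a site of binding.

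The level of the 10 transcripts was highest for brevican and lowest for aggrecan. Means over the 16 libraries were 85.7 FPKM for Bcan, 47.7 for Ptprz1, 38.6 for Hapln4, 35.5 for Ncan and 21.5 for Tnr. The other 5 were Hapln1 at 7.83, Hapln2 at 6.67, Vcan at 2.52, Tnc at 1.31 and Acan at 0.834 FPKM. Bcan stood above 94.1% of the 12648 genes that passed the filter for testing, a mean over all libraries of 1 FPKM or more. Acan alone fell below that filter. Bcan lay above Ptprz1 in every library, and the ranges of Tnr and Hapln1 and of Hapln2 and Vcan did not meet either. All other neighbours in this order overlapped in range, as did Hapln4 (30.9 to 44.7) and Ncan (24.4 to 45.8). FPKM is per length of transcript, so these levels can be set beside each other, but the transcript length behind each value is not given.

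**Figure D1:**
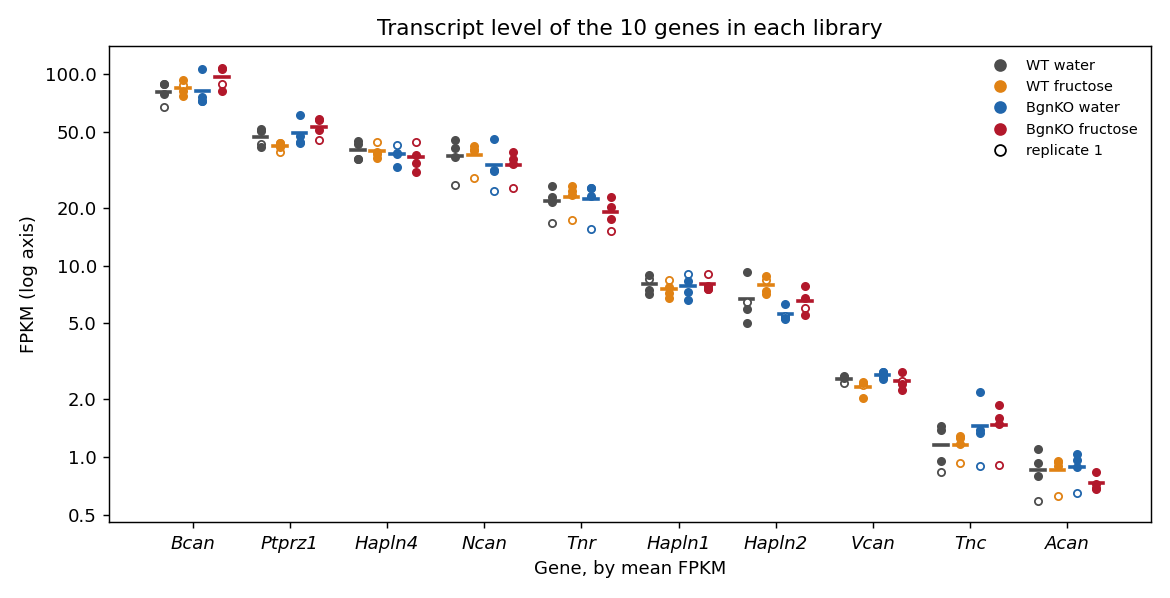
Points are the FPKM of the 10 genes (log axis) in each of the 16 libraries, coloured by group, with open points for replicate 1 and bars for group means (n = 4). Bcan was highest and Acan lowest by mean, and the replicate 1 points of Ncan, Tnr and Tnc lay below all 12 others.

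None of the 9 tested members passed the test in any of the 7 comparisons. Limma, fitted to log2(FPKM + 1) over all 12648 genes with Benjamini-Hochberg adjustment at 0.05, called 0 of 9 members each time. Of all genes it called 0.387% for BgnKO against WT on water, 3.76% for the same on fructose, 0.00791% for fructose against water in WT and 0.0% for it in BgnKO. It called 0.00791% for the interaction of genotype and drink, 4.99% for genotype averaged over drinks and 0.00791% for drink averaged over genotypes. At an unadjusted p under 0.05, 0 members passed on water and 1 (Ptprz1) for genotype on fructose, against 5.33% and 21.3% of all genes. For genotype averaged over drinks 2 members passed (Ptprz1 and Hapln2), against 21.1% of all genes, for drink averaged over genotypes 1 (Hapln2), against 10.8%, and 0 for fructose in WT (2.08% of all genes), fructose in BgnKO (12.9%) and the interaction (2.91%). Member medians of the log2 fold change were 0.00 on water and 0.07 on fructose for genotype, beside 0.00 and -0.01 for all genes. Bgn itself was not called for genotype on water (log2 fold -1.09, limma adjusted p = 0.370) or on fructose (-1.07, limma adjusted p = 0.0869). Averaged over drinks limma called Bgn lower (-1.08, limma adjusted p = 0.0168).

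Groups of 4 libraries kept apart in range for 0 of 9 members on water (4.01% of all tested genes), 1 of 9 for genotype on fructose (11.0% of all genes), 0 of 9 for fructose in WT (1.87%) and 0 of 9 for fructose in BgnKO (3.99%). The 1 member was Ptprz1, a share of members near that of all genes. The 95% intervals are given as folds of FPKM + 1. Each is for a single gene and is not adjusted for the number of genes, and Acan has none. On FPKM itself the bounds are wider, most of all for members of low level such as Tnc. For genotype on water they ran from 0.667-fold to 1.41-fold over the 9 members, and on fructose from 0.649-fold to 1.47-fold. For fructose in WT they ran from 0.764-fold to 1.44-fold and in BgnKO from 0.666-fold to 1.44-fold.

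**Figure D2:**
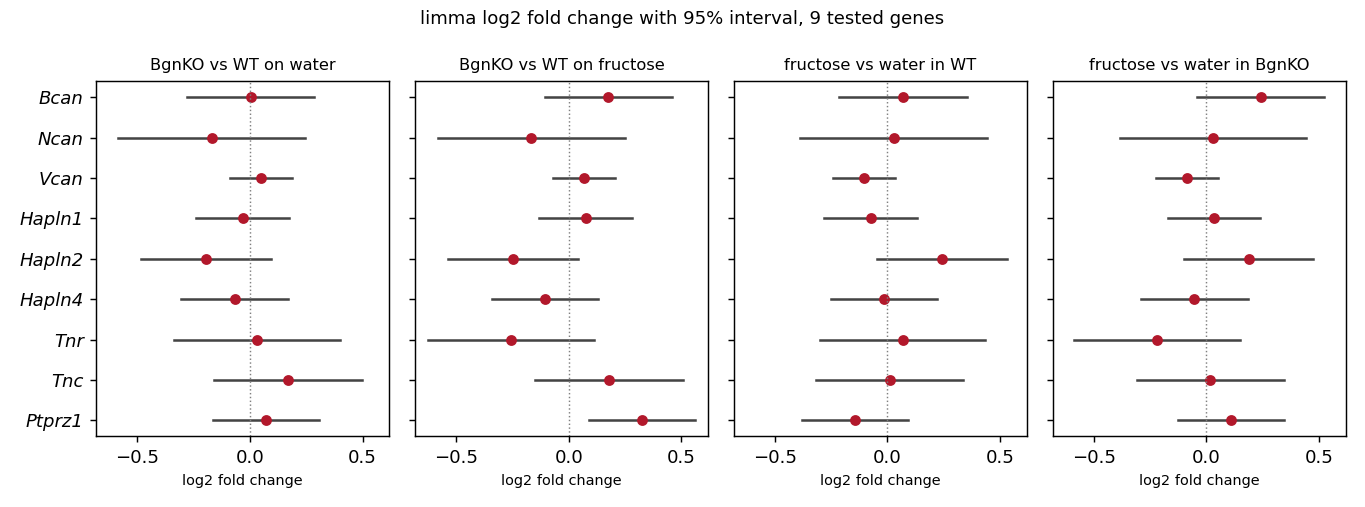
Points are limma log2 fold changes on the log2(FPKM + 1) scale for the 9 tested genes in 4 comparisons, and lines are 95% intervals. The interval of Ptprz1 for BgnKO against WT on fructose, 0.09 to 0.56, is the 1 interval shown that leaves out 0.

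Ptprz1 (chr6:22875502-23052916, plus strand) encodes a receptor tyrosine phosphatase of astrocytes and oligodendrocyte precursors whose secreted form, phosphacan, binds tenascins and other matrix proteins. In the order of replicates 1 to 4 it held 43.1, 50.2, 51.6 and 41.4 FPKM in WT on water and 39.0, 43.4, 41.7 and 43.7 in WT on fructose. In BgnKO it held 43.7, 44.4, 47.7 and 61.3 FPKM on water and 45.4, 50.8, 57.4 and 58.5 on fructose. On fructose the lowest BgnKO library lay above the highest WT library, while on water the genotypes overlapped. The means were 53.0 ± 6.11 in BgnKO and 42.0 ± 2.13 in WT on fructose (SD, n = 4 each), which is a log2 fold change of 0.32 (standard error 0.11) that missed the threshold (limma adjusted p = 0.108). On water they were 49.3 ± 8.23 and 46.6 ± 5.10 (SD, n = 4 each), which is a log2 fold change of 0.07 (standard error 0.11, limma adjusted p = 1.0). The difference between those effects was 0.25 (SE 0.16, limma adjusted p = 0.999), so an effect of genotype that depends on the drink was not shown.

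Markers of astrocytes and of other non-neuronal cells were read beside Ptprz1. On fructose the summed FPKM of the 15 markers was 2674, 2404, 2997 and 3329 in BgnKO and 2149, 2138, 2231 and 2309 in WT (replicates 1 to 4). All 15 had a positive log2 fold, with a median of 0.42 beside -0.01 for all genes, and limma called 4 of them higher: Fgfr3, Gfap, Gja1 and Aqp4. Gfap, the intermediate filament of astrocytes, was 159.7 ± 31.4 FPKM in BgnKO and 105.2 ± 8.25 in WT (SD, n = 4 each; log2 fold 0.58, SE 0.15, limma adjusted p = 0.0409). Other lists had positive folds in the same comparison, with 0 called by limma: 10 of 10 microglia markers (median 0.38), 10 of 10 choroid plexus markers (median 1.11) and 11 of 11 meningeal and fibroblast markers (median 0.47). Their summed FPKM in BgnKO and WT on fructose was 272.5 to 354.9 and 203.6 to 255.3 for microglia, 2647 to 9217 and 233.0 to 4467 for choroid plexus, and 316.9 to 3082 and 268.0 to 1500 for meninges. On water, BgnKO replicate 4 had both the highest Ptprz1 (61.3) and the highest marker sum of its group (3053). None of the markers of these 4 lists was at 0 in any library. The part that these cells play in the Ptprz1 values was not tested, and in bulk tissue fewer cells of a type and less RNA per cell cannot be told apart.

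Tnr (chr1:159523769-159931729, plus strand) encodes tenascin-R, the cross-linker of lecticans in nets. It held 16.7, 25.9, 21.4 and 22.9 FPKM in WT on water and 17.3, 26.0, 23.2 and 24.6 in WT on fructose, in the order of replicates 1 to 4. In BgnKO it held 15.6, 25.4, 25.3 and 23.1 on water and 15.2, 22.7, 20.3 and 17.5 on fructose. The replicate 1 libraries were the lowest of each group, and within replicates 2 to 4 the fructose groups did not overlap, with BgnKO lower. In those libraries, a choice made after the data were seen, 4 of 9 members did not overlap (Tnc and Ptprz1 higher, Ncan and Tnr lower in BgnKO), where 33.4% of all genes did not. Over all 4 replicates the means on fructose were 18.9 ± 3.30 in BgnKO and 22.8 ± 3.83 in WT (SD, n = 4 each). The log2 fold change was -0.25 (SE 0.17, limma adjusted p = 0.416), with 4 of 4 BgnKO libraries below the WT mean. Of 10 pan-neuronal markers, 9 had a negative log2 fold on fructose, with a median of -0.18, and limma called 0. Their sums were 4376, 4458, 4650 and 3643 FPKM in BgnKO (replicates 1 to 4) and 4365 to 5013 in WT, and no marker was at 0. Of 9 hippocampal field markers 1 was positive (median -0.28), and limma called 2 lower, beside 3.76% of all genes called. Of 10 neocortex markers 3 were positive (median -0.22), with 0 called. Positive were 9 of 10 oligodendrocyte precursor markers (median 0.09) and 9 of 13 oligodendrocyte markers (median 0.02), with 0 called. The part of these cells and regions in the Tnr values was not tested.

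**Figure D3:**
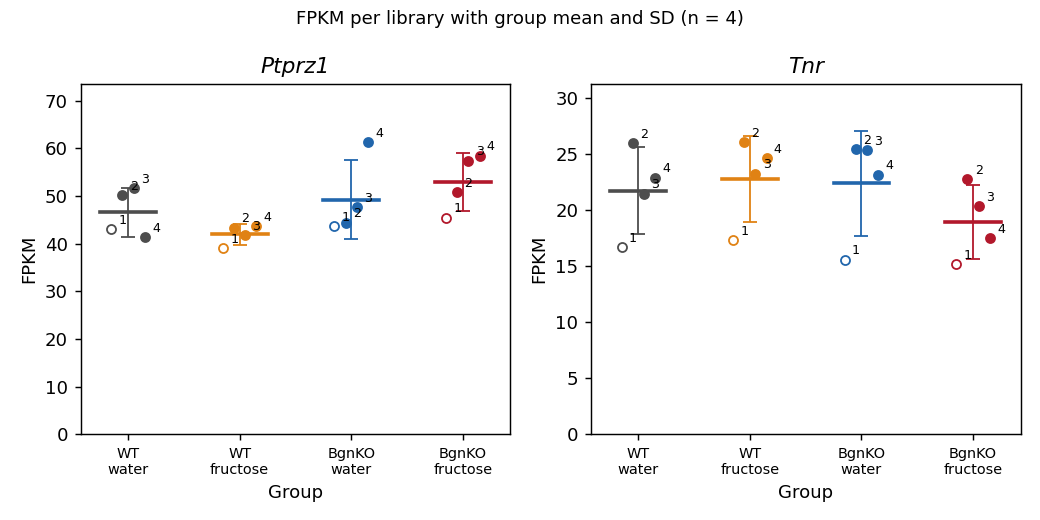
FPKM of Ptprz1 and Tnr in each library by group, with the replicate number beside each point, open points for replicate 1, a bar for the mean and whiskers of 1 SD (n = 4). On fructose the BgnKO libraries of Ptprz1 (45.4 to 58.5) lie above those of WT (39.0 to 43.7), and replicate 1 is the lowest Tnr point in every group.

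Several members differed between replicate 1 and the other replicates. That comparison was chosen after the data were seen and used a limma fit with a term for replicate 1, in which 50.4% of all genes differed. Of the 9 members, Ncan, Tnr, Tnc and Ptprz1 were lower in replicate 1 and Hapln1 was higher. Ncan was 24.4 to 28.7 FPKM in replicate 1 and 31.3 to 45.8 in the others (log2 fold -0.53, limma adjusted p = 7.96e-05). Tnr was 15.2 to 17.3 against 17.5 to 26.0 (log2 fold -0.49, limma adjusted p = 1.82e-05). Tnc was 0.832 to 0.927 against 0.953 to 2.19, without overlap (log2 fold -0.36, limma adjusted p = 0.00302). Hapln1 was 8.43 to 9.07 against 6.63 to 8.89 (log2 fold 0.20, limma adjusted p = 0.0109). Replicate 1 holds 1 library of each group, so no 2 groups can be compared within it.

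With that term in the model, limma called Ptprz1 higher and Tnr lower in BgnKO on fructose. That is 2 of 9 members, where it called 17.3% of all genes. The log2 fold change of Ptprz1 was 0.32 (SE 0.09, limma adjusted p = 0.0260) and that of Tnr -0.25 (SE 0.08, limma adjusted p = 0.0370). Averaged over drinks it called Ptprz1 higher (0.20, SE 0.06, limma adjusted p = 0.0440), 1 of 9 members beside 18.0% of all genes. In replicates 2 to 4 alone, which hold 3 libraries a group, it called neither on fructose: Ptprz1 was at 0.36 (limma adjusted p = 0.0614) and Tnr at -0.28 (limma adjusted p = 0.0721). Without WT fructose replicate 1 and BgnKO fructose replicate 4, a choice made after the data were seen, Ptprz1 was at 0.24 (limma adjusted p = 0.373) and Tnr at -0.34 (limma adjusted p = 0.392).

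Among the lecticans, brevican (Bcan, chr3:87987531-88000230, minus strand), a small lectican made mostly by glia, held 67.0, 88.5, 89.1 and 78.4 FPKM in WT on water and 87.1, 76.6, 92.8 and 81.4 in WT on fructose. In BgnKO it held 72.0, 72.0, 76.1 and 106 FPKM on water and 88.4, 81.1, 108 and 106 on fructose. Replicate 4 of BgnKO on water stood above its 3 group members, and fructose and water overlapped in both genotypes. The means in BgnKO were 95.9 ± 13.3 on fructose and 81.5 ± 16.4 on water (SD, n = 4 each), which is a log2 fold change of 0.24 (standard error 0.13, limma adjusted p = 0.452). In WT they were 84.4 ± 7.01 and 80.8 ± 10.4 (SD, n = 4 each; log2 fold 0.07, limma adjusted p = 1.0).

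Neurocan (Ncan, chr8:70093085-70120873, minus strand), the soluble lectican of developing brain, had group means of 37.3 ± 8.08 in WT on water, 37.8 ± 6.11 in WT on fructose, 33.3 ± 8.98 in BgnKO on water and 33.6 ± 5.96 in BgnKO on fructose (SD, n = 4 each). Averaged over drinks the BgnKO effect was -0.17 on the log2 scale (SE 0.14, limma adjusted p = 0.527). Replicate 1 was the lowest library of every group. Versican (Vcan, chr13:89655312-89742509, minus strand), a large lectican of glia and of loose matrix, was the steadiest member, at 2.03 to 2.79 FPKM with a coefficient of variation of 8.06%. Its mean was 2.33 ± 0.198 in WT on fructose and 2.57 ± 0.0931 in WT on water (SD, n = 4 each; log2 fold -0.10, SE 0.07, limma adjusted p = 1.0). The fructose effect averaged over genotypes was -0.09 (SE 0.05, limma adjusted p = 0.473).

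Aggrecan (Acan, chr7:79053483-79115099, plus strand), the lectican most used to stain mature nets, was below 1 FPKM on average and was tested by itself. It held 0.593, 0.801, 0.929 and 1.10 FPKM in WT on water and 0.625, 0.902, 0.945 and 0.957 in WT on fructose. In BgnKO it held 0.652, 1.04, 0.967 and 0.888 on water and 0.694, 0.841, 0.681 and 0.721 on fructose. All groups overlapped, and replicate 1 was the lowest library in 3 of 4 groups. In BgnKO the mean was 0.734 ± 0.0730 on fructose and 0.886 ± 0.168 on water (SD, n = 4 each; exact 2-sided permutation p = 0.171). On fructose WT was at 0.857 ± 0.157 (exact permutation p against BgnKO = 0.2). On water the genotypes were at 0.886 and 0.857 (exact permutation p = 0.83), and WT was at 0.857 on both drinks (exact permutation p = 1.0). The smallest p that 4 against 4 libraries allow is 0.0286. Within replicates 2 to 4, WT (0.935 ± 0.0285) lay above BgnKO (0.747 ± 0.0831) on fructose without overlap. In that comparison 33.4% of all tested genes did not overlap, and 3 against 3 libraries can give no exact permutation p below the 0.1 found. BgnKO on water (0.964 ± 0.0754) also lay above BgnKO on fructose within replicates 2 to 4 without overlap (exact permutation p = 0.1, SD over n = 3). For this drink comparison 17.1% of all tested genes did not overlap.

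Of the link proteins, Hapln2 (chr3:88021750-88027583, minus strand), also named Bral1 and known from nodes of Ranvier in myelinated fibres, had the most uneven groups. It held 6.44, 9.22, 5.02 and 5.97 FPKM in WT on water and 8.37, 7.39, 8.82 and 7.08 in WT on fructose. In BgnKO it held 5.43, 6.32, 5.32 and 5.25 on water and 6.04, 5.51, 6.76 and 7.82 on fructose. All 4 BgnKO libraries lay below the WT mean on either drink, but the ranges of the genotypes overlapped on both drinks. Averaged over drinks it was 6.05 ± 0.891 in BgnKO and 7.29 ± 1.46 in WT (SD, n = 8 each), which is a log2 fold change of -0.22 (standard error 0.10, limma adjusted p = 0.195). Averaged over genotypes it was 7.22 ± 1.12 on fructose and 6.12 ± 1.35 on water (SD, n = 8 each), which is a log2 fold change of 0.22 (standard error 0.10, limma adjusted p = 0.453).

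Glial markers were read beside Hapln2. All 13 oligodendrocyte markers had a positive log2 fold for fructose averaged over genotypes, with a median of 0.19 beside 0.01 for all genes, and limma called 0. So had 10 of 10 microglia markers (median 0.17) and 13 of 15 astrocyte markers (median 0.12), again with 0 called. For genotype averaged over drinks 4 of the 13 oligodendrocyte markers were positive, with a median of -0.04. The summed FPKM of the oligodendrocyte markers was 2124 to 2867 in WT on water, 2217 to 2997 in WT on fructose, 1934 to 2348 in BgnKO on water and 2267 to 3496 in BgnKO on fructose. None of these markers was at 0. Their part in the Hapln2 values was not tested.

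Hapln1 (chr13:89539796-89611652, plus strand), the link protein of nets also called Crtl1, and Hapln4 (chr8:70083457-70090862, plus strand), the brevican-binding link protein Bral2, stayed close between groups. Hapln1 had group means of 7.99 ± 0.835 in WT on water, 7.53 ± 0.727 in WT on fructose, 7.81 ± 1.06 in BgnKO on water and 7.99 ± 0.732 in BgnKO on fructose (SD, n = 4 each). Hapln4 had means of 39.9 ± 4.49, 39.4 ± 3.38, 38.1 ± 4.12 and 36.8 ± 5.68 FPKM in the same order (SD, n = 4 each). Their log2 fold changes over the 4 comparisons between groups lay between -0.11 and 0.08, with adjusted p from limma of at least 0.624. The 10 parvalbumin interneuron markers summed to 210 to 348 FPKM. By median over the libraries Gad1 held 89.3 FPKM, Gad2 42.7, Slc32a1 32.9 and Pvalb 33.0, so the sum does not read out Pvalb alone. Of the 10 markers, 0 had a positive log2 fold for fructose averaged over genotypes (median -0.18), and limma called 0. Hapln4 was at -0.03 (SE 0.08) in that comparison.

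Tnc (chr4:63959785-64047015, minus strand), tenascin-C, a matrix protein of astrocytes and of injury, held 0.832, 1.39, 1.46 and 0.953 FPKM in WT on water and 0.927, 1.29, 1.26 and 1.17 in WT on fructose. In BgnKO it held 0.901, 1.38, 1.33 and 2.19 on water and 0.910, 1.49, 1.87 and 1.60 on fructose. The highest WT library reached 1.46 and 4 of 8 BgnKO libraries lay above it. The genotype means were 1.46 ± 0.442 and 1.16 ± 0.230 (SD, n = 8 each), which is a log2 fold change of 0.18 (standard error 0.11, limma adjusted p = 0.380). On a scale with 1 added to FPKM, folds of a gene this low are understated. An annotated transcript on the other strand (8030451A03Rik) overlaps Tnc, and Vcan, Hapln1 and Tnr also have genes opposite to them. How the authors' counting treated strand is not stated in the labels.

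**Figure D4:**
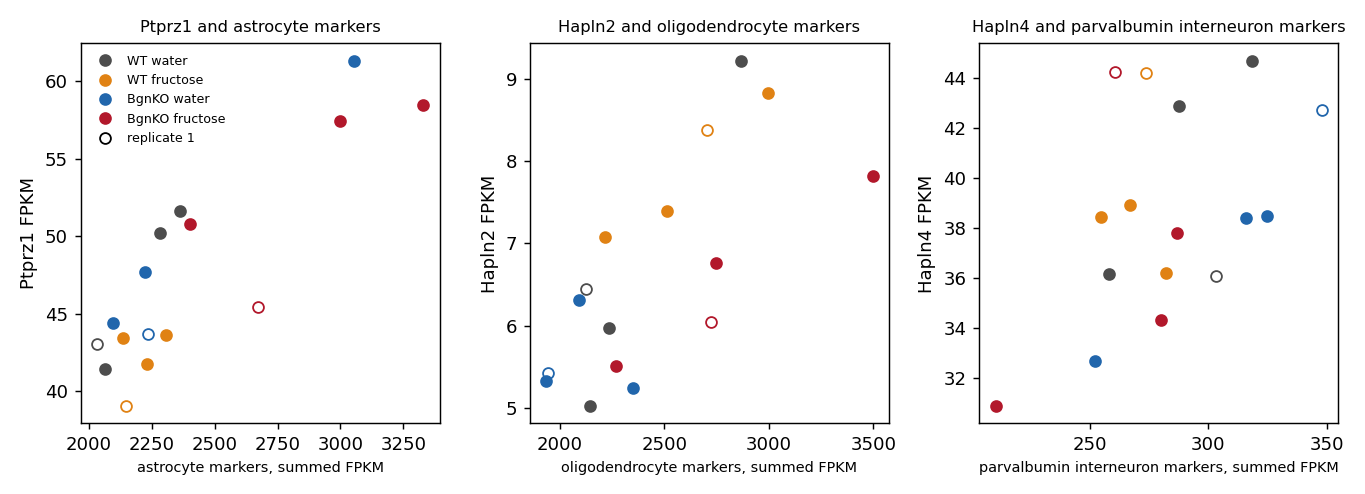
FPKM of Ptprz1, Hapln2 and Hapln4 in each library against the summed FPKM of astrocyte, oligodendrocyte and parvalbumin interneuron markers, coloured by group with open points for replicate 1. The 3 libraries of highest astrocyte sum (2997 to 3329) are also the 3 highest in Ptprz1 (57.4 to 61.3), as a description of 16 libraries.

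Pairs of members were compared over the 12 libraries of replicates 2 to 4, because 50.4% of all genes differed between replicate 1 and the others. Of 45 pairs, 6 had a Benjamini-Hochberg adjusted permutation p under 0.05 by Pearson's r and 1 by both Pearson's r and Spearman's rho. That 1 pair was Tnc and Ptprz1, with r = 0.90 (adjusted permutation p = 0.0009) and rho = 0.96 (adjusted permutation p = 0.0009). The relation was r = 0.88 without the 2 libraries farthest from the median of Tnc and 0.92 with group means removed. Other pairs were as close with group means removed: r was 0.94 for Ncan with Tnc and 0.92 for Ncan with Ptprz1. With group means kept these Ncan pairs were at 0.28 and 0.25. Bcan was at 0.83 with Ptprz1 and 0.81 with Tnc once group means were removed. No test was run on values with group means removed. Bcan and Ptprz1 had r = 0.78 (raw permutation p = 0.0038, adjusted 0.0499) and rho = 0.61 (adjusted permutation p = 0.165). Their r fell to 0.65 without the 2 libraries farthest from the median of Bcan. Acan and Ptprz1 had r = -0.74 (adjusted permutation p = 0.0499) and rho = -0.71 (adjusted permutation p = 0.101). Their r was -0.58 without the 2 libraries farthest from the median of Acan. Bcan and Tnr had r = -0.72 (adjusted permutation p = 0.0499), which was -0.46 without the 2 farthest libraries, so it rests in part on those. Also among the 6 were Bcan with Tnc (r = 0.72) and Acan with Bcan (r = -0.74), each with an adjusted permutation p of 0.0499. Over all 16 libraries r was 0.86 for Tnc with Ptprz1, 0.70 for Bcan with Ptprz1 and 0.69 for Bcan with Tnc. It was -0.07 for Acan with Ptprz1, -0.11 for Acan with Bcan and -0.04 for Bcan with Tnr. These negative relations were thus seen only without replicate 1.

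**Figure D5:**
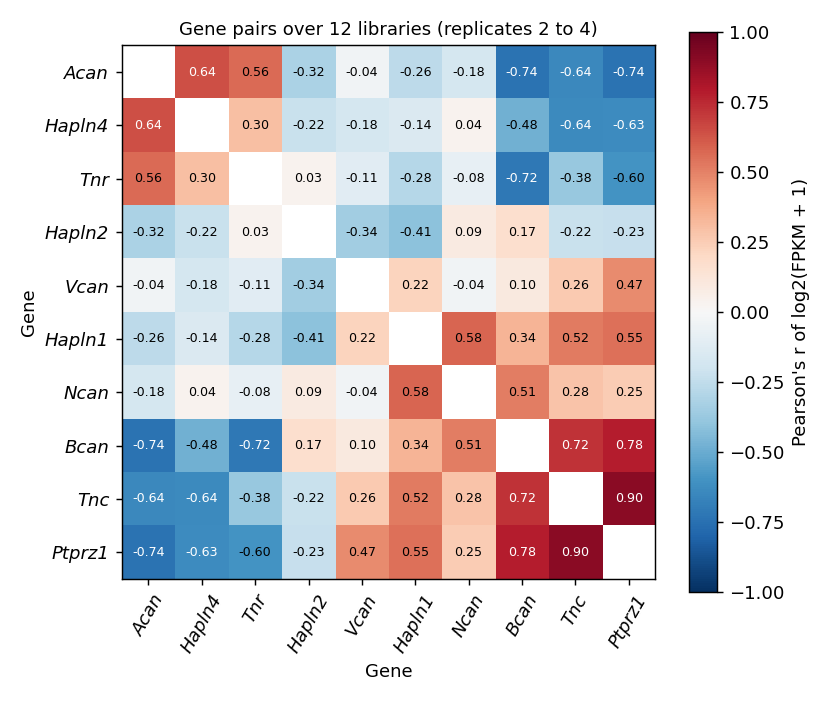
Pearson's r of log2(FPKM + 1) for the 45 pairs of the 10 genes over the 12 libraries of replicates 2 to 4, with red positive and blue negative. Ptprz1, Tnc and Bcan form a positive block (0.72 to 0.90), and Acan is negative with each of these (-0.64 to -0.74), while over all 16 libraries Acan had r of -0.07 with Ptprz1, -0.11 with Bcan and 0.25 with Tnc.

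The lecticans and link proteins lie in neighbouring pairs in the genome. Bcan and Hapln2 are 21.5 kb apart on chromosome 3, Ncan and Hapln4 2.22 kb apart on chromosome 8, Vcan and Hapln1 43.7 kb apart on chromosome 13, and Acan and Hapln3 2 bases apart on chromosome 7. For the 3 pairs made of members, no correlation was detected over the 12 libraries: r was 0.17 for Bcan with Hapln2 (adjusted permutation p = 0.744), 0.04 for Ncan with Hapln4 (adjusted permutation p = 0.918) and 0.22 for Vcan with Hapln1 (adjusted permutation p = 0.666). Hapln3, the link protein that is not among the 10, ranged from 0.272 to 0.693 FPKM.

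The other genes of the net pathway were read from 4 lists. Of 8 tested genes of hyaluronan synthesis and turnover, limma called 0 in all 7 comparisons, and 7 had a positive log2 fold for genotype averaged over drinks (median 0.11, all genes -0.01). The hyaluronan receptor Cd44 was at 0.28 (SE 0.13, limma adjusted p = 0.243) and the hyaluronidase Hyal2 at 0.14 (SE 0.09, limma adjusted p = 0.368). Of 18 tested genes of chondroitin sulfate synthesis, limma called 0 in all 7. Averaged over drinks, Csgalnact1, which starts the chondroitin chain, was at 0.21 (SE 0.07, limma adjusted p = 0.0852) and Chsy3, which lengthens it, at -0.20 (SE 0.08, limma adjusted p = 0.129).

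Of 11 tested proteases of lecticans and their inhibitors, limma called 1 for genotype averaged over drinks (4.99% of all genes were called) and 0 in the 6 other comparisons. Timp4, a metalloproteinase inhibitor, rose by a log2 fold of 0.36 (standard error 0.10, limma adjusted p = 0.0452), while Timp3 was at 0.50 (SE 0.14, limma adjusted p = 0.0544). Of 23 tested receptors, ligands and partners, limma called 3 higher and 0 lower in BgnKO on fructose (3.76% of all genes called) and likewise 3 and 0 averaged over drinks (4.99%). The list had a median log2 fold of -0.06 on fructose, beside 0.42 for astrocyte, 1.11 for choroid plexus and 0.47 for meningeal markers, whose part in these calls was not tested. On fructose Ptprf, a receptor phosphatase of the family that binds chondroitin sulfate, was at 14.5 ± 2.29 FPKM, against 9.06 ± 1.37 in WT (SD, n = 4 each), and rose by a log2 fold of 0.62 (standard error 0.13, limma adjusted p = 0.0181). The integrin subunit Itgb1 rose by 0.43 (SE 0.10, limma adjusted p = 0.0292) and Itgav by 0.37 (SE 0.09, limma adjusted p = 0.0431). Pleiotrophin (Ptn), a ligand of Ptprz1, was 207.0 ± 16.7 FPKM in BgnKO and 165.2 ± 20.3 in WT on fructose (SD, n = 4 each), and its genotype effect averaged over drinks was 0.28 (SE 0.08, limma adjusted p = 0.0542).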

How the data were processed

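Per the labels' protocols, polyadenylated RNA of mouse hippocampus was reverse transcribed with random hexamers and sequenced on an Illumina HiSeq. Per the submitters' processing notes, the authors used TopHat, Bowtie, Cufflinks and Cuffdiff with mm10. Versions, strand setting and the scaling of the values are not given in the sources used here. The deposited values are FPKM per locus for 16 libraries, so the depth is unknown and no counting interval is given. The authors' 4 columns of group FPKM equalled the replicate means for the members and were not used.

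Loci of one name were summed (711 names). Tests used limma 3.58.1 in R 4.3.3 on log2(FPKM + 1) with 4 group means, no block and a mean-variance trend, for the 12648 genes whose mean reached 1 FPKM, adjusted by Benjamini and Hochberg over all of them. The script was tested on simulated data. Acan got exact permutation tests. Positions are from GENCODE vM21 (GRCm38). Pairs of members were tested with 100000 resamples.

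Members and lists were chosen with earlier results of these data known. Of each pathway list, genes were eligible for naming if called or among the 4 of smallest p for genotype averaged over drinks. Of markers, the astrocyte markers called on fructose and defining ones were named. Markers called in other lists or comparisons were not all named. Same-number libraries deviated together for fructose against water (correlations 0.118 to 0.699 in WT and 0.197 to 0.612 in BgnKO), but from 0.00 to 0.14 and -0.04 to 0.31 within replicates 2 to 4, and as low as -0.04 and 0.09 for genotype on water and on fructose. Alternatives were another pseudocount, filters, scalings, a replicate block, a term for replicate 1, and leaving out libraries.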

Additional observations from a re-analysis of the deposited data

Results flagged for a closer look

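In 5 of 40 groups of 4 libraries, 1 library lay far from the others by Dixon's criterion at its 95% critical value, where chance flags about 1 in 20. Acan in WT fructose replicate 1 was at 0.625 FPKM, against 0.902 to 0.957 in the 3 others. Ncan in the same library was at 28.7 FPKM, against 40.0 to 42.3. Bcan in BgnKO water replicate 4 was at 106 FPKM, against 72.0 to 76.1. Vcan in WT fructose replicate 3 was at 2.03 FPKM, against 2.39 to 2.46. Hapln2 in BgnKO water replicate 2 was at 6.32 FPKM, against 5.25 to 5.43.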

How the results depend on the processing

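Of 63 member folds (9 genes in 7 comparisons), 36 kept their sign in all alternatives run and 27 did not, the largest of these at a size of 0.11 on the log2 scale. Limma called a member in some alternative for 3 of the 63. With the replicate block it called 2 members for genotype on fructose (Ptprz1, 0.32, adjusted p = 0.0300; Tnr, -0.25, adjusted p = 0.0166), beside 2483 of all genes, and with the term for replicate 1 it called the same 2, and 1 (Ptprz1) averaged over drinks. The block changed no other member call. Leaving out 1 library gave 0 to 1 members called on fructose: without BgnKO fructose replicate 1, Ptprz1 was at 0.40 (adjusted p = 0.0471), beside 940 of all genes. Over all alternatives the adjusted p of Ptprz1 on fructose ran from 0.0260 to 0.373 and that of Tnr from 0.0166 to 0.667. The cause was not tested. Acan differences between BgnKO and WT on water ran from -0.0590 to 0.112 FPKM with 1 library left out, and those between fructose and water in WT from -0.0881 to 0.0824, so their sign rests on single libraries. Precision is limited by 4 libraries a group and by a depth that is unknown.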

Other observations

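The genes whose levels followed each member most closely over the 16 libraries were read as a description, with r over replicates 2 to 4 in brackets. For Ptprz1 they were the glutamate transporter Slc1a2 at r = 0.95 (0.97), Ppap2b at 0.94 (0.96) and Igdcc4 at 0.93 (0.96). For Tnc they were the proteoglycan Cspg4 at 0.94 (0.90), Agap1 at 0.94 (0.88) and Atp1b2 at 0.93 (0.86). For Bcan they were Shank3 at 0.96 (0.95), Gng7 at 0.95 (0.96) and Nsmf at 0.95 (0.94). For Hapln2 they were Sec14l5 at 0.94 (0.96), Akap13 at 0.88 (0.91) and Enpp6 at 0.85 (0.85).

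For Hapln4 they were Nudcd3 at 0.93 (0.92), Nos1ap at 0.87 (0.85) and Lrrc47 at 0.87 (0.87). The likenesses of Ncan (Hivep3 at 0.96) and Tnr (Setd2 at 0.96) were 0.92 and 0.90 without replicate 1, which holds the lowest libraries of both. Vcan (Spry2 at 0.71) and Hapln1 (Osgin2 at 0.82) had looser neighbours. All of these values come from the same libraries, which differ in replicate 1 and in marker sums, and the r values are the highest of 12648 genes for each member.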
